A study of Mus musculus with 18 samples.

Results

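The genes described here are named as chromatin remodelers (Chd and Smarc families) or as histone methylation enzymes (Kmt, Setd and Kdm symbols). Such enzymes place or remove methyl groups on histones. The classes follow the symbols, and the activity of each member was not checked. Members were chosen by symbol alone, as loci whose gene name holds Chd followed by a digit, or starts with Smarc, Kmt, Kdm or Setd. Opposite-strand transcripts, pseudogenes and the sex chromosomes were left out. This gave 57 loci with 56 symbols among 52179 loci with a symbol, and 4 further loci were dropped for lying on X or Y. The 57 are 11 Chd loci, 12 Smarc loci, 16 demethylase loci and 18 methyltransferase loci. Of these, 55 passed the filter on low values, set at a mean of 10 normalized counts across all 18 samples, and entered the test with 15579 loci in total. Kdm4d, with a mean normalized count of 2.91, and Kdm4dl, listed at 0 in every sample, were not tested.

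The cells were N2A (Neuro2A), a mouse neuroblastoma line, wild type by the labels and sequenced 48 h after transfection. In the pulldown assay a synthetic miRNA with a biotin tag is brought into cells, and streptavidin beads then pull it down with its bound RNA. The 6 groups of 3 samples came from cells given biotinylated miR-92b, cells given a scrambled biotinylated control (Scr) and cells without transfection (control), each as nuclear lysate (Nuc) and as whole cell lysate (Whole). Both mimics were used at 25 nM, and libraries were made from RNA with a poly(A) tail. By the paper, the RNA sequenced after the pulldown was what the beads took from each lysate. Control cells held no tagged mimic. Levels below are those of the sequenced RNA, and their relation to RNA levels in the lysate was not tested. A whole cell lysate still holds the nucleus, so that the 2 kinds of lysate share part of their RNA. All groups come from 1 line, and the labels do not say that the 3 samples of a group were separate cultures, so p-values measure only the spread between these samples, which may be technical.

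Chromatin remodelers use ATP to slide, evict or exchange nucleosomes. Chd3, Chd4 and Chd5 are the ATPases of the NuRD complex, which also carries histone deacetylases, while Smarca4 and Smarca2 are the alternative ATPases of the SWI/SNF (BAF) complexes, built on a core of Smarcb1, Smarcc, Smarcd and Smarce subunits. Kmt2 and Setd1 enzymes methylate histone H3 at lysine 4 within COMPASS complexes, and Kdm enzymes remove such marks. Many of these genes are known from neurodevelopmental disorders, among them Chd2, Chd8, Setd5, Kmt2a, Kmt2d and Smarcb1.

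The mature miR-92b sequence is shown because members were searched for matches to its seed. Pairing outside the seed was not searched, and the sequence is that of RefSeq, not one stated for the mimic. RefSeq (GRCm38.p6) places mmu-miR-92b-3p at chr3:89227126-89227147, minus strand. Bases 2 to 8, the seed, are in capitals, and in the sites below, read 5′ to 3′ on the transcript strand, the capitals mark the complementary 7 bases (GTGCAAT).
mmu-miR-92b-3p: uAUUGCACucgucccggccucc
Setd5, 3′ UTR, chr6:113151739-113151768, plus strand: taacggttctaaGTGCAATgacttgtgttg
Kdm5b, 3′ UTR, chr1:134634654-134634683, plus strand: ccctgaggccttGTGCAATggatatttggc
Kmt5b, 3′ UTR, chr19:3815754-3815783, plus strand: tagccttcttatGTGCAATtccgagggaaa
These were the only 3 of 54 annotated members with that match in the longest 3′ UTR among their coding transcripts (GENCODE M21, GRCm38). Their share was 5.56%, against 7.83% of 10570 tested loci of 1 gene. None held the 8-base match GTGCAATA, which 2.78% of those loci held. The match TGCAATA, to bases 2 to 7 followed by an A, which is also part of the 8-base match, lay in 6 other members (11.1%, against 10.1% of those loci), namely Chd2, Chd9, Smarca5, Kmt2e, Setd1b and Setd7.

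Before the members are described, 1 library has to be named. Whole cell miR-92b sample 3 had 0.602% of its reads on the 57 loci, against 0.776% to 0.936% in the other 8 whole cell samples and 0.804% to 0.947% in the 9 nuclear samples, and its summed count of 5 cytoplasmic mRNAs, 62498, was the highest of all samples. Reads on loci with a symbol ranged from 3752991 to 22920038 per sample, and reads on the members from 31384 to 191128. Of 6 nuclear RNAs looked up, Malat1 (log2 difference 1.08), Neat1 (1.06) and Kcnq1ot1 (0.98) were higher in nuclear samples, as the labels state. Meg3 (1.65 ± 0.86) did not pass (limma adjusted p = 0.15). Miat and Snhg11 were below the filter, with mean normalized counts of 0.75 and 0.21 in nuclear and 0 and 0.56 in whole cell samples. All 5 cytoplasmic mRNAs were lower in nuclear samples, by log2 differences of -1.15 (Eno1) to -2.75 (Tubb5). The sympathetic lineage genes Phox2a, Hand2, Gata2 and Gata3 were read in both lysates, with mean normalized counts of 136 to 1762, while the neurofilament genes Nefl and Nefm were at or near 0. Of 4 fibroblast genes the summed normalized count was at most 37.8 in any sample, of 4 microglial genes at most 50.6 and of 3 astrocyte genes at most 75.7. The oligodendrocyte gene Mbp had mean normalized counts of 58.7 in nuclear and 114 in whole cell samples, and the part of such cells or transcripts in the results was not tested.

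The levels of the members were first compared with each other per length, in FPKM (fragments scaled to transcript length and to mapped fragments) averaged over all 18 samples. Setd5, a SET domain protein, stood first at 172 ± 31.7 FPKM (SD, n = 18), ranging from 163 to 231 in nuclear and from 98.4 to 189 in whole cell samples. Kdm3a, which removes methyl groups from histone H3 lysine 9, followed at 113 ± 28.1 FPKM and Chd2 at 77.2 ± 19.6 FPKM. The ranges of these 3 genes over samples overlap from one to the next. Chd6 (44.8 FPKM), Smarce1 (41.1), Kmt2c (40.9), Smarcad1 (40.7), Kmt2e (39.8), Kdm1a (39.1) and Chd4 (36.2) came next and lay within their spread of each other. At the low end stood Setd1b (3.70 FPKM), Kdm1b (3.13), Chd5 (2.27) and Kdm8 (0.97). The neural NuRD ATPase Chd5 was therefore read at a small share of the level of Chd4, whose values ran from 26.9 to 51.2 FPKM against 0.97 to 5.25 FPKM for Chd5.

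Nuclear against whole cell level was then tested with the 3 treatments weighted equally. Of the 55 members, 23 passed the threshold (limma adjusted p under 0.05), 10 higher and 13 lower in nuclear samples. Of all 15579 loci, 31.0% passed, 15.3% higher and 15.8% lower. The members therefore split into both directions, with 28 of 55 differences above 0 and a median log2 difference of 0.00, against 0.14 for all tested loci. That background depends on loci with low counts. With a filter at a mean of 50, the median was -0.0048 for 53 members and 0.018 for 10571 loci. There 24 members passed, 10 higher and 14 lower, beside 4535 of all loci, 2151 higher and 2384 lower. With every sample rescaled to the same median, which moves the median of all loci to 0.23, 22 members passed, 15 higher and 7 lower. Of all 15579 loci 5022 passed there, 2900 higher and 2122 lower. The lower calls of members that held were Chd3, Smarca5, Smarcc1, Smarcd1, Kdm6b, Kmt5a and Setd1a. A normalized count is a share of a library, and in bulk samples fewer cells of a type and less RNA per cell cannot be told apart. Of the 23 calls, 16 held with each single sample left out, and 8 held under all 28 alternatives, namely Chd2, Chd8, Smarca5, Smarcd1, Smarce1, Kdm6b, Kmt2c and Kmt5a. Without the loci that join several genes and a Chd1 locus of doubtful label, 19 of 47 members passed, 9 higher and 10 lower.

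**Figure D1:**
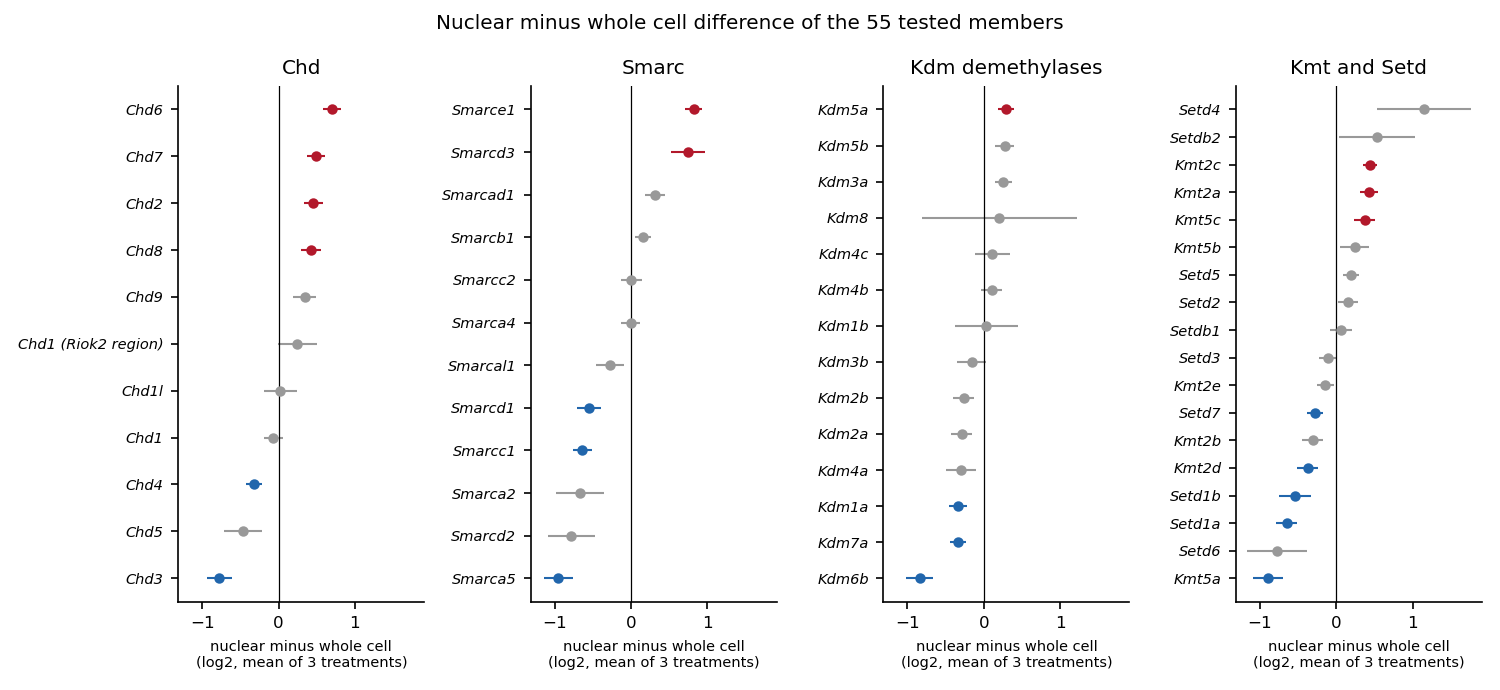
Nuclear minus whole cell difference (log2, x axis, mean of the 3 treatments, bars: standard error of the fit) for the 55 tested members in 4 panels by class. Red points are higher and blue points lower in nuclear samples past the threshold, 10 and 13 members, and grey points are not past it. Each class holds both colours, from Smarca5 at -0.95 to Smarce1 at 0.82 among the called members.

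Among the 11 Chd loci, 4 were higher and 2 lower in nuclear samples, beside 15.3% and 15.8% of all loci. Chd6, Chd7 and Chd8, of the subfamily III, and Chd2, of the subfamily I, were higher in nuclear samples, while the NuRD ATPases Chd3 and Chd4 were lower. Chd6 (chr2:160938744-161109075), a DNA-stimulated ATPase, had normalized counts of 1716, 1931 and 2596 (lowest, median and highest) in the 9 nuclear samples. In the 9 whole cell samples it had 890, 1150 and 1788. The groups touch only through whole cell Scr sample 3, which lay above the lowest nuclear sample. The difference was 0.71 ± 0.12 on the log2 scale (SE, limma adjusted p = 8.42e-05). Chd7, mutated in CHARGE syndrome, differed by 0.49 ± 0.12 (limma adjusted p = 0.0029), and Chd8, an autism gene, by 0.43 ± 0.13 (limma adjusted p = 0.014). Chd9, the remaining member of that subfamily, had a difference of 0.34 ± 0.15 that did not pass (limma adjusted p = 0.098), but passed on FPKM (0.60, adjusted p = 0.046) and with rescaled samples (0.43, adjusted p = 0.041).

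Chd2, an epilepsy gene, shares its locus (chr7:73426638-73558395) with the noncoding transcript 1810026B05Rik. Its normalized counts were 2191, 2280 and 2566 (lowest, median and highest) in nuclear samples, against 860, 1732 and 2210 in whole cell samples. The lowest of these, 860, came from whole cell miR-92b sample 3, and only whole cell Scr sample 3 reached into the nuclear range. The difference was 0.45 ± 0.13 (limma adjusted p = 0.0079).

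Chd3 (chr11:69343273-69369408) went the other way. It had normalized counts of 234, 410 and 495 (lowest, median and highest) in nuclear samples, against 420, 665 and 717 in whole cell samples. Only whole cell miR-92b sample 2, at 420, fell within the nuclear range. The difference was -0.77 ± 0.16 (limma adjusted p = 6.72e-04). Chd4 was lower by a smaller amount, with a difference of -0.32 ± 0.11 (limma adjusted p = 0.025). Its call was lost without any 1 of nuclear control sample 2, nuclear Scr sample 3, nuclear miR-92b sample 3 and whole cell Scr sample 1 (adjusted p of 0.055 to 0.057), and its locus also holds the small RNA genes Mir7045 and Gm23751. The third NuRD ATPase, Chd5, had a difference of -0.46 ± 0.25 (limma adjusted p = 0.15). Chd1, which slides nucleosomes at active genes, had a difference of -0.07 ± 0.12 (limma adjusted p = 0.71) at the locus that holds the annotated gene. A second locus labelled Chd1, at chr17:17374332-17395303, lies where GENCODE M21 places Riok2, and its label is doubtful. On FPKM, Chd3 (-0.57), Chd6 (0.43) and Chd7 (0.48) kept their direction and did not pass, while the Chd4 difference was 0.09.

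The Smarc genes gave the highest and the lowest of the called differences. Smarce1 (chr11:99207034-99231017), which encodes the BAF57 subunit of the SWI/SNF core, had normalized counts of 1407, 1729 and 2188 (lowest, median and highest) in nuclear samples. In whole cell samples it had 767, 1020 and 1313. The 9 nuclear and 9 whole cell samples did not overlap, and the difference was 0.82 ± 0.11 (limma adjusted p = 5.40e-06). Among the 55 members, 2 had nuclear samples all above the whole cell samples (Smarce1 and Kmt2c) and 1 had them all below (Smarcc1), against 2.91% and 4.40% of all tested loci.

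Smarcc1 (chr9:110084320-110240178), the BAF155 scaffold subunit, had normalized counts of 434, 682 and 850 (lowest, median and highest) in nuclear samples, against 866, 1007 and 1221 in whole cell samples. The difference was -0.64 ± 0.12 (limma adjusted p = 2.89e-04). Its paralog Smarcc2 (BAF170) had a difference of 0.00 ± 0.13, and the ratio of Smarcc1 to Smarcc2 counts within a sample, which a size factor cannot move, had a median of 1.01 in nuclear and 1.52 in whole cell samples. These ratios ranged from 0.85 to 1.62 and from 1.34 to 2.52 and so overlapped. On FPKM the Smarcc1 difference was -0.13 and did not pass (adjusted p = 0.59).

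Smarca5, the ISWI ATPase SNF2H, was the lowest of the called members. Its normalized counts were 193, 436 and 566 (lowest, median and highest) in nuclear samples, against 483, 811 and 1090 in whole cell samples, which overlap through whole cell Scr sample 1, at 483. The difference was -0.95 ± 0.19 (limma adjusted p = 4.07e-04). This locus joins a second transcript, RP23-434H18.1. Of the interchangeable BAF60 subunits, Smarcd3 was higher (0.74 ± 0.22, limma adjusted p = 0.012) and Smarcd2 had a difference of -0.79 ± 0.31 (limma adjusted p = 0.054). Smarcd1, named after its values were seen, was lower (-0.55 ± 0.15, limma adjusted p = 0.0075).

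The SWI/SNF ATPases themselves did not pass in normalized counts. Smarca4 (BRG1) had a difference of 0.00 ± 0.12 and Smarca2 (BRM) of -0.67 ± 0.31 (limma adjusted p = 0.10). The helicase-like remodeler Smarcad1 had a difference of 0.31 ± 0.13 (limma adjusted p = 0.068), which passed on FPKM (0.52, adjusted p = 0.011) and with rescaled samples (0.40, adjusted p = 0.024). The core subunit Smarcb1 depended on the unit, with a difference of 0.15 ± 0.10 by normalized counts (limma adjusted p = 0.29) and of -0.63 on FPKM (adjusted p = 0.012). On FPKM, Smarcd3 (0.52) did not pass.

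**Figure D2:**
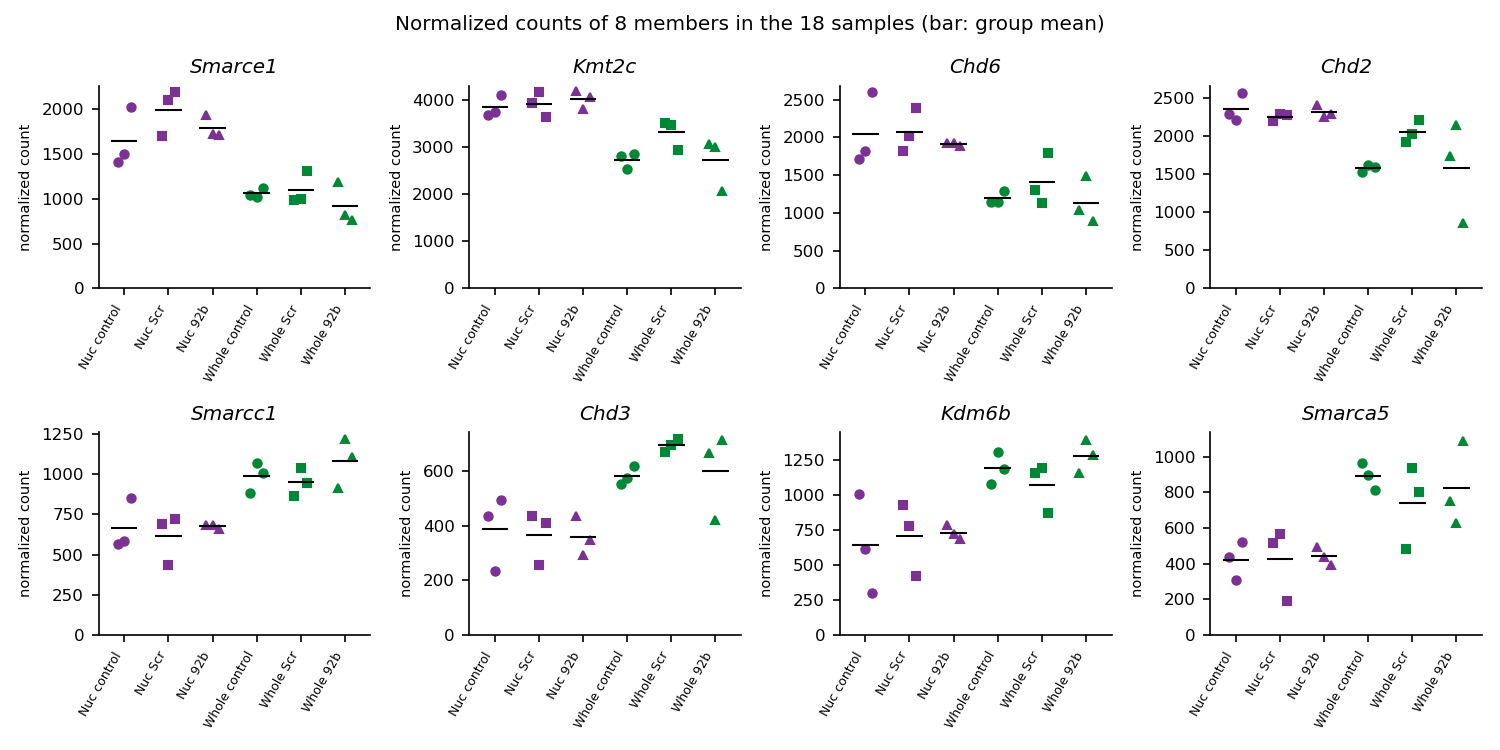
Normalized counts (y axis, from 0) of 8 members in the 18 samples, by group along the x axis, with purple points for nuclear and green for whole cell samples and a bar at each group mean. The upper row shows members higher in nuclear samples and the lower row members lower there, with no overlap for Smarce1, Kmt2c and Smarcc1 and a low Chd2 value, 860, in whole cell miR-92b sample 3.

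Of the 18 methyltransferase loci, 3 were higher and 5 lower in nuclear samples, beside 15.3% and 15.8% of all loci. The H3 lysine 4 enzymes were on both sides. Kmt2c (chr5:25269979-25498821), an enhancer-bound enzyme also known as MLL3, had normalized counts of 3642, 3928 and 4190 (lowest, median and highest) in nuclear samples. In whole cell samples it had 2064, 2943 and 3517, all below the nuclear ones. The difference was 0.44 ± 0.10 (limma adjusted p = 0.0011). Kmt2a (MLL1) was higher by 0.43 ± 0.12 (limma adjusted p = 0.0068).

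Kmt2d (MLL4, chr15:98831635-98872463), the closest paralog of Kmt2c, was lower, with a difference of -0.37 ± 0.14 (limma adjusted p = 0.045). This gene is named after its values were seen, and its call was lost in 14 of 18 fits with a sample left out (adjusted p up to 0.10). The ratio of Kmt2c to Kmt2d counts within a sample had a median of 1.27 (range 0.84 to 1.61) in nuclear and 0.71 (range 0.59 to 0.89) in whole cell samples. Within each of the 3 treatments, every nuclear ratio lay above every whole cell ratio. The paralogs were paired by name, and no test was made of the ratios. Of 17 such pairs examined, all 17 overlapped over the 9 nuclear and 9 whole cell samples, and 8 were separate in some treatment. Kmt2c to Kmt2d was the 1 pair separate in each treatment. These genes were called in opposite directions from the same counts, so their ratio is no separate result. Other gene pairs were not counted for comparison.

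Setd1a and Setd1b, the catalytic subunits of the SET1 COMPASS complexes, were both lower. Setd1a differed by -0.65 ± 0.14 (limma adjusted p = 8.77e-04), at a locus that also holds Hsd3b7, and Setd1b by -0.54 ± 0.21 (limma adjusted p = 0.048). The Setd1b call was lost in 12 of 18 fits with a sample left out. The ratio of Setd1a to Setd1b was alike in both lysates, with medians of 2.76 in nuclear and 2.98 in whole cell samples.

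Kmt5a (chr5:124439930-124462401), which monomethylates histone H4 lysine 20 during the cell cycle, was the lowest of the methyltransferases. Its normalized counts were 109, 155 and 399 (lowest, median and highest) in nuclear samples, against 193, 310 and 436 in whole cell samples. The overlap came from nuclear Scr sample 2, at 399, since the other 8 nuclear samples lay at 170 or below. The difference was -0.89 ± 0.20 (limma adjusted p = 0.0013). Kmt5c, which adds the further methyl groups at the same residue, was higher by 0.37 ± 0.14 (limma adjusted p = 0.049), a call lost in 15 of 18 fits with a sample left out and with the sample number as a block. Setd7, a lysine 4 monomethyltransferase, was lower, with a difference of -0.28 ± 0.11 (limma adjusted p = 0.047), with the call lost in 14 of these fits. Both were named after their values were seen.

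The remaining methyltransferases at the ends of the order did not pass. Setd4 had the highest difference, 1.15 ± 0.62 (limma adjusted p = 0.16), followed by Setdb2, a lysine 9 enzyme, at 0.53 ± 0.50 (limma adjusted p = 0.44). Setd6, which methylates non-histone proteins too, had a difference of -0.77 ± 0.39 (limma adjusted p = 0.14). Their normalized counts were low, with means of 43.7, 69.9 and 75.4. On FPKM, Kmt2a (0.36), Setd1a (-0.53), Setd1b (-0.71), Kmt5c (0.28) and Setd7 (-0.40) did not pass, while Setd3, at -0.11 in normalized counts, passed there (-0.79, adjusted p = 0.0056).

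Among the 14 tested demethylases, 1 was higher and 3 were lower in nuclear samples, beside 15.3% and 15.8% of all loci. Kdm6b (chr11:69398412-69416080), the inducible enzyme that removes methyl groups from histone H3 lysine 27, had normalized counts of 302, 719 and 1007 (lowest, median and highest) in nuclear samples. In whole cell samples it had 870, 1186 and 1389. Nuclear control sample 1 and nuclear Scr sample 1, at 1007 and 929, reached above the lowest whole cell value. The difference was -0.84 ± 0.18 (limma adjusted p = 7.64e-04).

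Kdm7a, which acts on lysines 9 and 27 of histone H3, was lower by a difference of -0.34 ± 0.10 (limma adjusted p = 0.015). Kdm1a (LSD1), the amine oxidase of the CoREST complex, was lower by a like amount, -0.34 ± 0.12 (limma adjusted p = 0.036). Kdm5a, a lysine 4 demethylase, was higher by 0.30 ± 0.11 (limma adjusted p = 0.036). The calls of Kdm1a and Kdm5a were each lost in 10 of 18 fits with a sample left out, with adjusted p up to 0.084 and 0.080, and neither passed on FPKM. Kdm5b (0.28 ± 0.13), Kdm3a (0.26 ± 0.11) and Kdm4a (-0.30 ± 0.19) did not pass. Kdm8 had a mean normalized count of 13.2 and a difference of 0.20 ± 1.02, which says little about its direction.

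Within single treatments fewer members passed. In control cells 4 of 55 did (9.85% of all loci, 2.94% higher and 6.91% lower), with Chd6 (0.75 ± 0.21) and Smarce1 (0.61 ± 0.19) higher and Smarca5 (-1.10 ± 0.32) and Kdm6b (-1.05 ± 0.30) lower. Samples rescaled to the same median gave 4 higher and none lower there, beside 777 higher and 894 lower of all loci. With Scr 2 passed (5.17% of all loci, 1.46% higher and 3.70% lower), Smarce1 (0.86 ± 0.19) higher and Chd3 (-0.95 ± 0.28) lower. With miR-92b 7 passed (13.3% of all loci, 6.66% higher and 6.63% lower), namely Smarce1 (0.98 ± 0.19), Chd8 (0.80 ± 0.22), Chd6 (0.79 ± 0.21), Chd2 (0.65 ± 0.22) and Kmt2c (0.59 ± 0.17) higher and Kmt5a (-1.51 ± 0.34) and Smarcc1 (-0.67 ± 0.21) lower. Smarce1 was thus called in each treatment by limma, with adjusted p of 0.043, 0.010 and 0.0015 in control, Scr and miR-92b. On FPKM it passed in none of them (adjusted p = 0.80, 0.11 and 0.19), with a control difference of 0.22. Its control call was also lost with a mean of at least 1 (adjusted p = 0.061) and with no filter (adjusted p = 0.080).

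These counts rest on single libraries. In control cells none passed without whole cell sample 1 or 2, 1 without nuclear sample 2 or whole cell sample 3, and 2 without nuclear sample 3. Of all 15579 loci these fits called 850 to 949. With Scr none passed without whole cell sample 1, and 1 without nuclear sample 2 or whole cell sample 3, beside 386 to 500 of all loci. With miR-92b 2 passed without whole cell sample 3, the library that stands apart, beside 975 of all loci. Smarce1 (0.86) and Kmt5a (-1.43) were still called by limma, while Chd2 (0.26, adjusted p = 0.31) and Kmt2c (0.40, adjusted p = 0.073) were not. Without nuclear miR-92b sample 1, 2 or 3, 3, 4 and 3 passed, beside 1213, 1123 and 1137 of all loci. Smarce1 in control cells lost its call without any 1 of 5 of the 6 samples (adjusted p of 0.076 to 0.24).

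**Figure D3:**
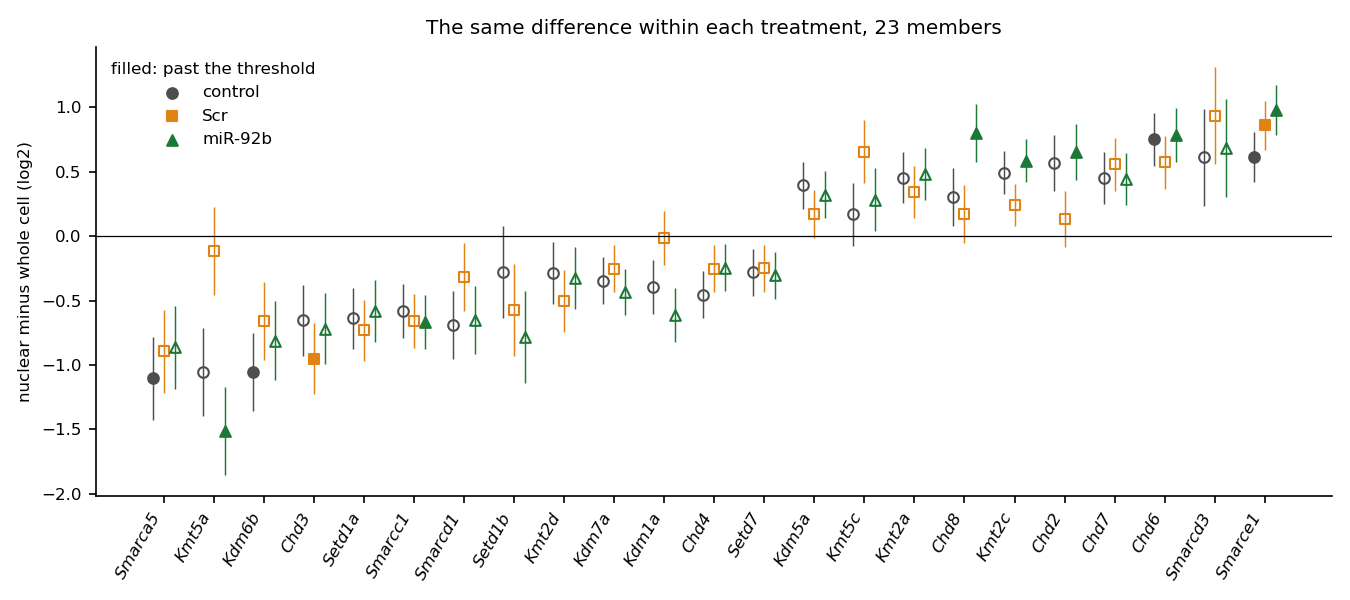
Nuclear minus whole cell difference (log2, y axis, bars: standard error) of the 23 called members within control (circles), Scr (squares) and miR-92b (triangles), filled where past the threshold. The members were picked by their mean over these treatments, so that a shared sign is no separate result, and the treatments stand farthest apart for Kmt5a, at -1.05, -0.11 and -1.51.

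Whether the compartment difference itself varied between treatments was tested with 1 F test per locus over the interaction terms. limma called 0 members and 0 of all loci (0%). 1 member, Kmt5a, and 695 of all loci had an unadjusted p under 0.05 (Kmt5a adjusted p = 0.96). DESeq2 and edgeR called 0 members, beside 8 and 1 of all loci. The normalized counts of Kmt5a in whole cell samples were 266, 303 and 379 in control, 210, 310 and 193 with Scr and 363, 366 and 436 with miR-92b. In nuclear samples they were 127, 159 and 168 in control, 146, 399 and 170 with Scr and 109, 155 and 144 with miR-92b. The Scr samples thus had the smallest gap between lysates, and 1 of them, nuclear sample 2, was the highest nuclear value. Without that sample the Scr difference was -0.56 in place of -0.11.

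For miR-92b against Scr, the comparison the pulldown was made for, no member passed in either lysate. In nuclear samples limma called 0 of 55 members and 0% of all loci. DESeq2 and edgeR called 0 members there, beside 1 and 0 of all loci. At an unadjusted limma p under 0.05 were 1 member (Smarcal1, an annealing helicase, at 0.79 ± 0.32) and 687 of all 15579 loci. Without nuclear Scr sample 1, 10 members and 1852 of all loci were at an unadjusted p under 0.05. In that fit limma called 0 members and 49 of all loci. In whole cell samples limma called 0 members and 0.00642% of all loci. There edgeR called 0 members and 1 of all loci, and DESeq2 called 1 member, Setd4, and 1.13% of all loci. In this lysate 4 members and 1515 of all loci were at an unadjusted limma p under 0.05. These 4 were Setd4, Smarcd2 (1.20 ± 0.53), Kmt5a (0.73 ± 0.34) and Chd2 (-0.48 ± 0.22). Without whole cell miR-92b sample 3 the last 3 were 0.80, 0.64 and -0.09. These members are named after their values were seen.

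Setd4 (chr16:93583457-93604063), a SET domain methyltransferase linked to cell quiescence, stood apart through the Scr samples. Its normalized counts in whole cell samples were 0, 6.08 and 0 with Scr, 47.7, 74.3 and 56.7 with miR-92b, and 48.2, 57.9 and 48.3 in control. The miR-92b and control values overlap, and only the Scr values are low. The nuclear values were 65.5, 21.9 and 3.78 with Scr, 51.9, 82.5 and 63.0 with miR-92b and 75.1, 32.3 and 52.2 in control. The fitted whole cell difference of miR-92b against Scr was 4.96 ± 1.07 (limma adjusted p = 0.19), a size that depends on the pseudocount (2.79 with a pseudocount of 8). DESeq2 gave an adjusted p of 0.0012, and limma without whole cell Scr sample 2 gave 0.040.

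The 3 members with a seed match gave these differences of miR-92b against Scr. Setd5 had 0.11 in nuclear and -0.14 in whole cell samples, Kdm5b had -0.24 and 0.04, and Kmt5b had -0.02 and -0.48. Without whole cell miR-92b sample 3 the whole cell differences were 0.07 for Setd5, 0.00 for Kdm5b and -0.11 for Kmt5b. The 6 members with TGCAATA ran from -0.29 to 0.20 in nuclear and from -0.48 (Chd2) to 0.21 in whole cell samples. All these values lie within those of the 45 members with none of the matches, which ran from -0.67 to 1.76 in nuclear and from -0.80 to 4.96 in whole cell samples. The 4.96 is that of Setd4, so lying within this wide range says little about the matched members. Medians of the 3, the 6 and the 45 members were -0.02, 0.07 and 0.11 in nuclear samples. In whole cell samples they were -0.14, -0.08 and -0.05, and their differences were not tested. Setd5, the member with the most reads, gave 5931, 5081 and 4604 normalized counts in the nuclear lysate with miR-92b, and 5303, 4212 and 4914 with Scr, so the groups overlap.

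Other genes of these pathways were then read from a list of 63 genes, of which 60 were tested. Of these 9 were higher and 13 lower in nuclear samples, beside 15.3% and 15.8% of all loci. Other SWI/SNF subunits gave 1 higher (Brd9, 0.79 ± 0.18) and 2 lower (Dpf1 and Bcl7c) of 17 tested. Other histone methyltransferases gave 3 higher of 10 (Nsd1, 0.92 ± 0.28, Ash1l, 0.44 ± 0.12, and Dot1l, 0.34 ± 0.13) and 1 lower, the lysine 9 enzyme Ehmt2 (-0.90 ± 0.12). COMPASS partners gave 2 higher (Rbbp5 and Ncoa6) and 1 lower (Dpy30) of 9, and further demethylase-family genes 1 higher (Jmjd1c, 0.55 ± 0.10) and 1 lower (Phf2, -0.94 ± 0.20) of 5. On FPKM none of the other methyltransferases was higher past the threshold.

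Other remodelers and their partners gave 2 higher and 8 lower of 19, beside 15.3% and 15.8% of all loci. Of the 10 that are subunits of NuRD, the complex around Chd3 and Chd4, 7 were lower and 1 higher. This subset was set apart after its values were seen and has no test of its own. The methyl-binding subunit Mbd3 had a mean normalized count of 90.5 in nuclear and 311 in whole cell samples and a difference of -1.92 ± 0.23. Mta1 (-1.63 ± 0.19), Hdac1 (-1.10 ± 0.23), Mta2 (-0.78 ± 0.17), Gatad2a (-0.59 ± 0.13), Hdac2 (-0.59 ± 0.12) and Rbbp4 (-0.39 ± 0.09) were lower too. Mbd2, which takes the place of Mbd3 in a separate NuRD form, was higher (0.64 ± 0.15), a call that did not hold on FPKM. The count of 7 lower and 1 higher was the same with rescaled samples, DESeq2 and edgeR. On FPKM it was 8 lower and 0 higher, beside 2515 lower and 1389 higher of all 15579 loci. These are the same picked genes in the same 18 libraries, so the recounts are no separate result.

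**Figure D4:**
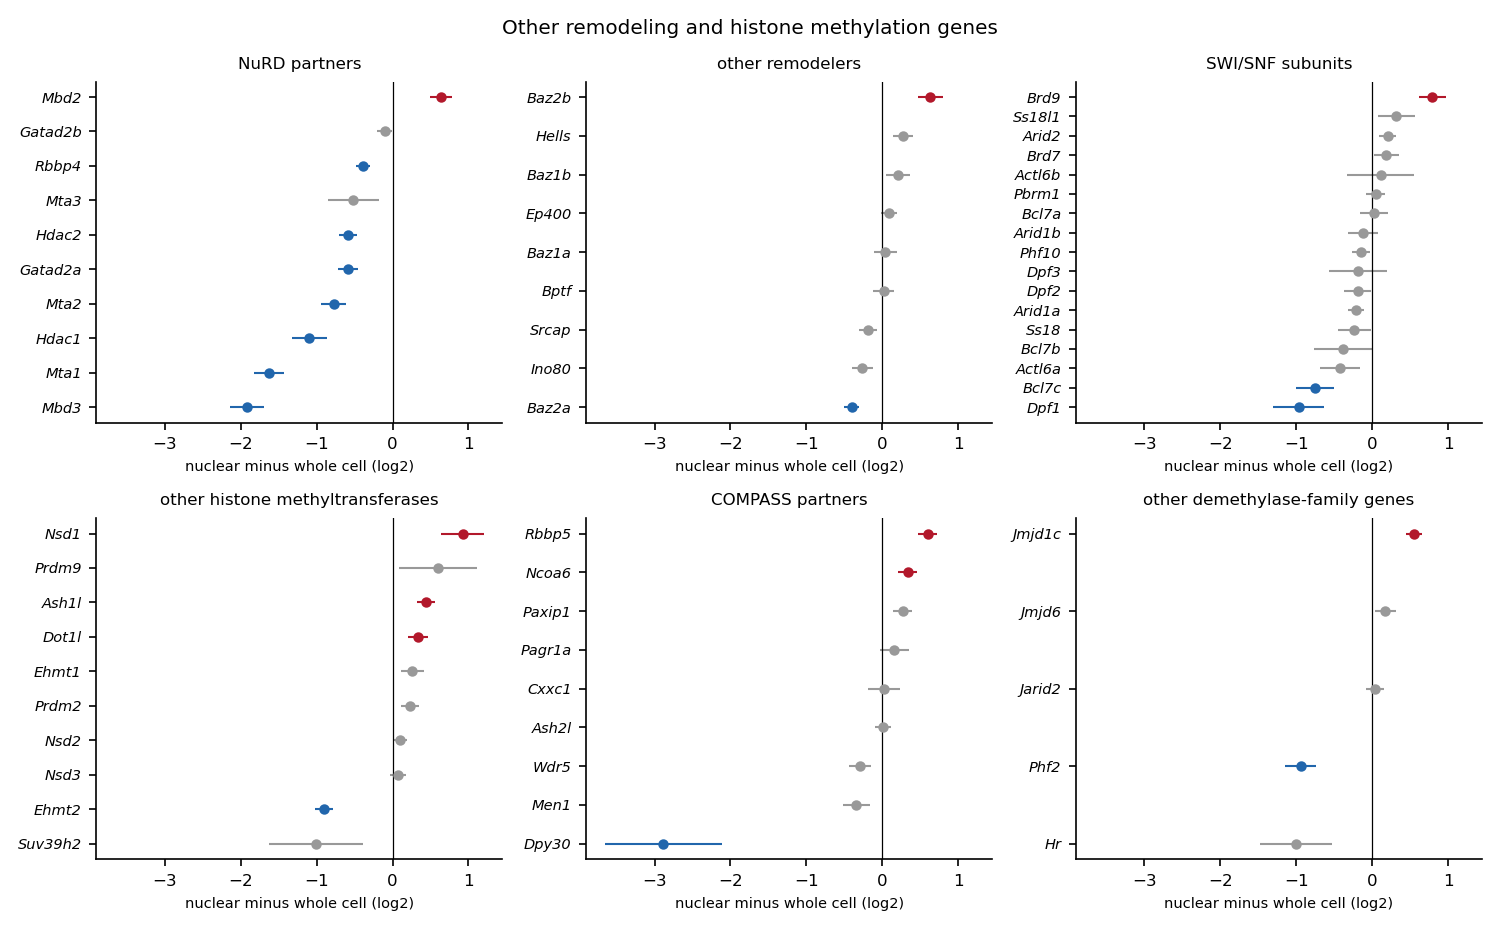
Nuclear minus whole cell difference (log2, x axis, bars: standard error) of the 60 tested pathway genes outside the members in 6 panels, coloured as for the members. Among the NuRD partners 7 points are blue and Mbd2 is red, and Mbd3 and Mta1 lie lowest there.

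The members were last read against what their annotation shows. The 10 members higher in nuclear samples span a median of 79196.5 bases of genome, the 13 lower ones 34611 and the other 31 with an annotation 51544. Among all tested loci of 1 gene the same medians were 47014, 21825.5 and 25573, so members are longer in each class. Across members, Spearman's rho of the difference with gene span was 0.30 (n = 54) and with the GC content of the transcript -0.28, against 0.19 and -0.19 over 10570 loci. These are correlations across genes, which share the same 18 libraries. The paralogs with opposite calls differ in the same sense, with 226986 bases for Kmt2c and 39536 for Kmt2d. Exceptions were Kmt5c, Smarce1 and Smarcd3, higher with spans of 7400, 21971 and 33594 bases, and Smarcc1, lower with 122471. Spliced transcript length was not related to the difference across members (rho 0.06, against 0.20 over all loci). Length and GC content also move with library preparation, whose part in these differences was not tested.

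**Figure D5:**
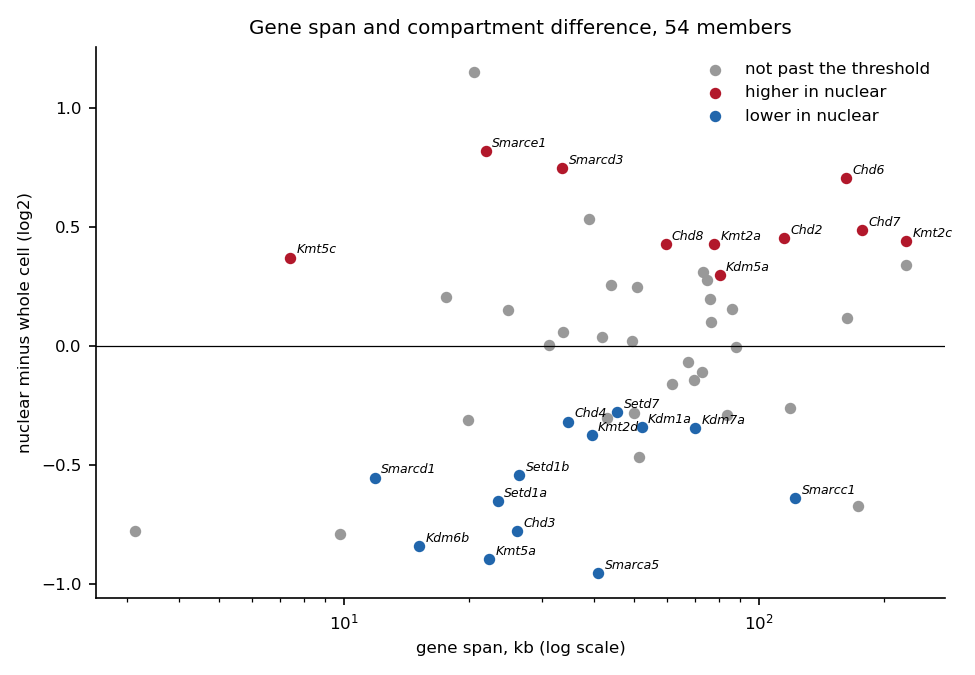
Gene span (x axis, kilobases, log scale) against the nuclear minus whole cell difference (y axis, log2) for the 54 annotated members, with called members named. Most red points lie to the right of the blue points, with Smarce1, Smarcd3 and Kmt5c as red points at short spans and Smarcc1 as a blue point at a long one.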

How the data were processed

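Reads were, per the labels and the methods of the study, trimmed with Trimmomatic 0.30, aligned with TopHat2 to GRCm38 (mm10), assembled into loci with Cufflinks and compared with Cuffdiff, and libraries were stranded. The versions of TopHat2, Cufflinks and gene annotation were not stated in the labels or methods used here. Deposited normalized counts are a signal, reads per locus scaled by a single factor for each sample. The authors' FPKM values are relative to transcript length and mapped fragments. The authors' comparison tables (group FPKM, log2 fold changes, p-values and q-values) were not used.

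Within 0.02 reads, 634902 of the 635205 values above 0 (99.95%) came out as whole reads, so reads were recovered for DESeq2 and edgeR. The design had allowed for raw counts. Since the table is normalized, limma 3.58.1 (R 4.3.3) was the main test, fitted to log2(normalized count + 1) with a trended variance, 1 model of the 6 groups, two-sided, Benjamini-Hochberg over 15579 loci, threshold 0.05. Differences are on the log2(value + 1) scale, which understates those of low loci. Alternatives were other pseudocounts (0.5, 8), other filters (mean 1, mean 50, none), FPKM (pseudocount 0.1), rescaling to the same median, the compared groups alone, the sample number as a block, DESeq2 1.42.0, edgeR 4.0.16 and each sample left out. Leaving out the loci that join several genes was added after seeing the data. The test scripts were tested on simulated data with 200 of 15579 loci changed by a log2 difference of 1, all with a mean of at least 50. There limma recovered 61% of them averaged over treatments, and 18.5%, 15% and 12.5% within control, Scr and miR-92b. Far more loci were called in the data, so recovery there may differ from these rates. A missing call within a treatment is therefore not a missing difference. Listed coordinates are those of a region, which loci can share.

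Named by rule were the 4 highest and 4 lowest members of each class by the nuclear against whole cell difference, and those called between mimics, between treatments or in all 3 treatments. The members, the gene lists and this rule were chosen with earlier results of these data known. Seed matches and lengths come from GENCODE M21, and the miRNA from RefSeq.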

Additional observations from a re-analysis of the deposited data

How the results depend on the processing

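Nuclear against whole cell, averaged over treatments, gave 14 called members on FPKM in place of 23. Of the 23, 10 were kept, and Chd9, Setd3, Smarcad1 and Smarcb1 were gained. With a sample left out 17 to 23 members were called. Of all 15579 loci, FPKM called 3904 and fits with a sample left out 4092 to 5391, against 4831. Control gave 1 with no filter, 14 from its groups alone, 8 with DESeq2 and 0 to 4 with a sample left out, against 4. With no filter 1114 of 28348 loci were called. Of 15579 loci its groups alone called 3108, DESeq2 2058 and samples left out 850 to 1287, against 1535. Scr gave 1 with a mean of at least 1, with no filter, with rescaled samples and with edgeR, against 2. It gave 0 on FPKM and 0 to 3 with a sample left out. The 2 filters called 680 of 22562 and 399 of 28348 loci. Of 15579 loci rescaled samples called 804, edgeR 579, FPKM 640 and samples left out 386 to 1052, against 805. miR-92b gave 1 on FPKM, 3 from its groups alone and 2 to 10 with a sample left out, against 7. Of 15579 loci FPKM called 1413, its groups alone 597 and samples left out 975 to 2914, against 2071. For miR-92b against Scr in whole cell samples DESeq2 gave 1 and samples left out 0 to 1, against 0. Of 15579 loci DESeq2 called 176 and samples left out 2 to 77, against 1. In nuclear samples, and for the difference between treatments, every alternative run gave 0 members. These runs also called few of all loci, 0 to 49 in nuclear samples and 0 to 8 for the difference between treatments.

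Chd4, called lower (-0.32), turned its sign on FPKM (0.093, not past the threshold), and Smarcb1, not called, was called lower there (-0.63). Others that turned their sign were not called: Chd1 on FPKM (0.21) and rescaled (0.021), Smarcc2 on FPKM (-0.11), Smarca4 rescaled (0.083), with DESeq2 (0.0051) and with edgeR (0.017), and Kdm8 with a pseudocount of 8 (-0.016), DESeq2 (-0.18) and edgeR (-0.18). With a sample left out, Kdm8 ran from -0.34 to 0.79, Smarcc2 from -0.073 to 0.090 and Smarca4 from -0.081 to 0.085. The cause was not tested.

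Samples that share a number were not treated as paired, and correlations of their deviations ran from -0.04 to 0.11. In nuclear samples, loci without a symbol held 10.8%, 10.4% and 9.96% of reads in sample 1 of control, Scr and miR-92b. The other nuclear samples had 13.1% to 15.3%. In whole cell samples, sample 1 had 8.06% to 11.3% and the others 4.51% to 10.8%. Whether the sample number marks a batch was not tested. The fit with the sample number as a replicate block called 23 members averaged over treatments (22 kept, Kmt5c lost, Kmt2b gained). It called 5 in control, 2 with Scr, 9 with miR-92b and 0 elsewhere. Of all 15579 loci the block fit called 4846 averaged over treatments, 1570 in control, 871 with Scr and 2160 with miR-92b. Members under about 50 normalized counts, such as Setd4 and Kdm8, rest on few reads.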
